A study of Mus musculus with 6 samples.

Results

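The PI3K, AKT and mTOR pathway was followed through 34 member genes, taken by gene symbol from a list of the pathway. All 34 were found among the 16588 genes of the deposited table. The RNA came from IL-33-activated lung ILC2s (group 2 innate lymphoid cells), resident lymphocytes of mouse tissues that make type 2 cytokines. The wild type (WT) group, labelled C57BL/6, had 3 libraries. The other 3 carry the label Cnr2 KO, a genotype named for the gene of the cannabinoid receptor CB2, and are called KO-labelled below. In both groups the mice had received 0.5 µg of recombinant IL-33 into the nose on each of 3 days, cells were isolated on day 4, and the sorted ILC2s spent 18 h in culture. An RNA amount of 10 pg, a very small input, is given for every library. The sources used here do not give age, sex, pooling of animals, the kind of Cnr2 allele or any stimulus in the culture. The series title names adipose tissue whereas all sample labels name lung.

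Class I PI3Ks phosphorylate a membrane lipid to make PIP3, and lipid phosphatases remove it. PIP3 recruits the kinases PDK1 and AKT to the membrane. AKT restrains FOXO transcription factors and the TSC complex, which frees the GTPase Rheb to switch on the kinase complex mTORC1 at the lysosome. Amino acids act on the same complex through Rag GTPases, the Ragulator anchor and their upstream regulators, and mTORC1 then drives translation through S6 kinases and the cap-binding machinery. In lymphocytes this pathway links cytokine and antigen receptors, and many G protein-coupled receptors, to growth, metabolism and migration.

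The 6 libraries held 17867558 to 129617819 counts, with WT replicate 2 alone above 19399820. Cnr2 itself was at 3.99, 3.89 and 3.17 CPM (a count relative to library size, with libraries scaled by the trimmed mean of M values, TMM) in WT replicates 1, 2 and 3 and at 7.55, 7.42 and 7.49 CPM in the KO-labelled libraries. It was therefore higher where the label names a knockout, and gene totals cannot show whether an exon is missing. All directions below are those of the labels. All 12 ILC2 markers examined were in the table, 8 of them higher and 3 lower in the KO-labelled libraries. By the same test, described below, 33.1% of all 12150 genes tested were higher and 33.2% lower. Gata3 was at 288 and 1073 CPM, Il1rl1 at 919 and 1572 CPM and Il5 at 5285 and 5354 CPM (WT, then KO-labelled), whereas Il2ra fell from 5450 to 2680 CPM, Areg from 243 to 140 CPM and Il13 from 151 to 79.8 CPM. Thy1 was low at 0.920 and 3.69 CPM.

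Of the 34 members, 33 passed the filter on low counts. The exception was Rragd, which encodes a Rag GTPase. Its counts were 4, 32 and 14 in WT replicates 1 to 3 and 6, 13 and 2 in the KO-labelled ones. Among the 33, 17 were higher and 5 lower in the KO-labelled libraries (quasi-likelihood test of edgeR, p under 0.05 after Benjamini-Hochberg adjustment), and 11 did not pass. Over all 12150 genes tested, 66.3% were called, 33.1% as higher and 33.2% as lower. The members' called share of 66.7% was thus near the background, while 51.5% of them were higher and 15.2% lower. With a 1.5-fold limit, 7 of 33 (21.2%) members were called, against 32.6% of all genes. Of the 7 members, 6 were higher and 1 was lower, against 16.9% higher and 15.7% lower among all genes. A further count, at 2-fold or more, held 4 members (12.1%), against 16.4% of all genes. The values of both groups did not overlap for 22 of the 33 members, against 68.9% of all genes. The members' median log2 fold change was 0.17, against 0.01 for all genes tested. With an offset that removes from each library a smooth trend of level with GC content and exon length, that median was 0.03, with 15 members higher and 6 lower. Over all 12150 genes the same offset gave 3820 higher and 4190 lower, with a median of -0.0070.

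**Figure D1:**
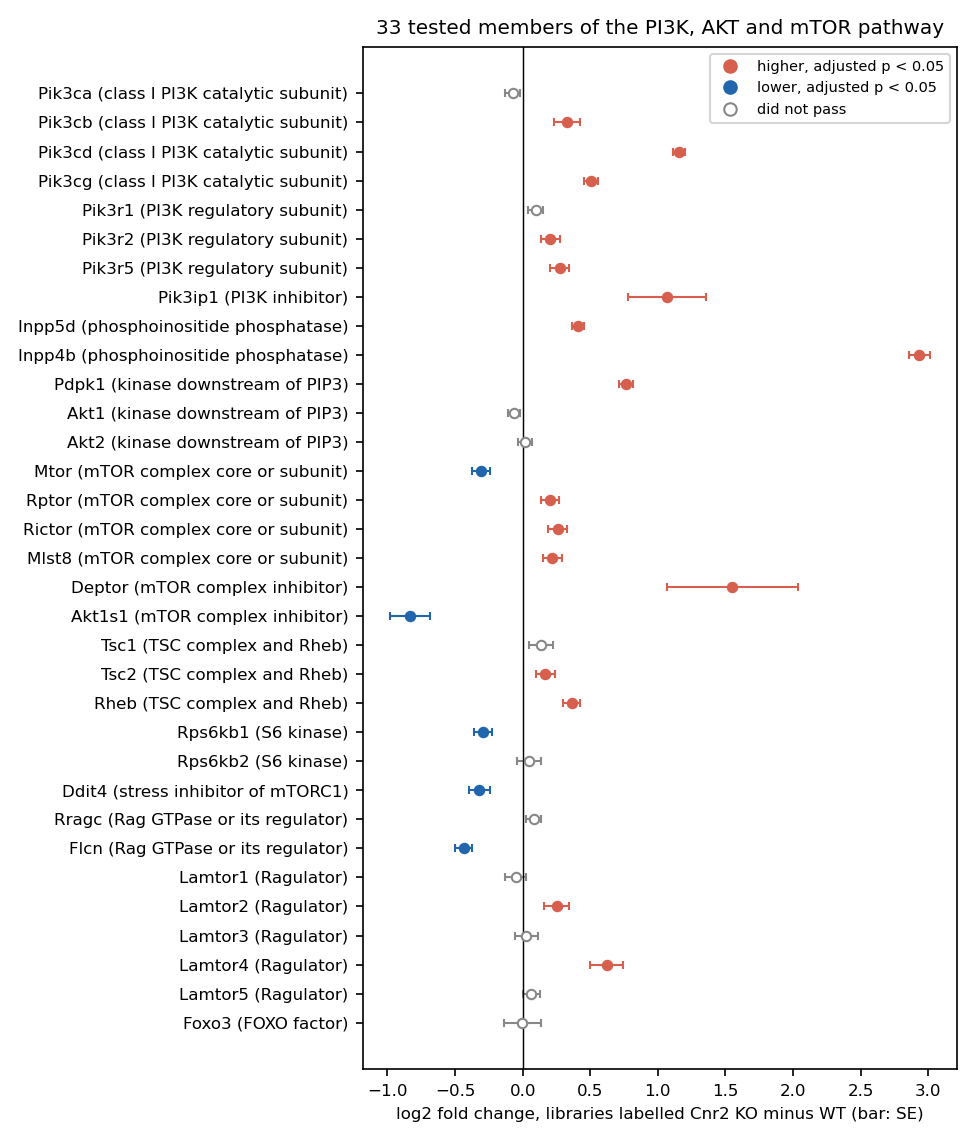
Log2 fold change (x axis, KO-labelled libraries minus WT) of the 33 tested members, with the role of each in brackets. Points are edgeR estimates from 3 against 3 libraries and bars are standard errors (SE). Red is higher and blue lower at adjusted p under 0.05, and open points did not pass. Inpp4b stands farthest to the right at 2.93, and Akt1s1 farthest to the left at -0.83.

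The catalytic subunits of class I PI3K differed most in the isoforms that leukocytes favour. Pik3cd (ENSMUSG00000039936.18, chromosome 4, 149649168 to 149702571, GRCm38) encodes the delta subunit, which serves cytokine and antigen receptors. Its level was 372, 358 and 356 CPM in WT replicates 1, 2 and 3 and 828, 806 and 784 CPM in the KO-labelled libraries. Every KO-labelled library was above every WT library, and the spread within a group was small beside the gap. The difference was 2.23-fold, with a log2 fold change of 1.15 (SE 0.04, adjusted p = 3.46e-14).

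Pik3cg (ENSMUSG00000020573.17, chromosome 12, 32173473 to 32208659) encodes the gamma subunit, which G protein-coupled receptors engage. It was at 296, 275 and 271 CPM in the WT libraries and 416, 405 and 373 CPM in the KO-labelled ones. The groups did not overlap, and the rise was 1.42-fold (log2 fold change 0.51, SE 0.05, adjusted p = 5.45e-08). The beta subunit gene Pik3cb rose from 18.7 ± 2.14 to 23.8 ± 1.89 CPM (SD, n = 3 each, log2 fold change 0.33). Pik3ca, the widely expressed alpha subunit, did not pass. Its WT mean was 93.9 ± 3.15 CPM and its KO-labelled mean 89.0 ± 5.75 CPM (log2 fold change -0.08, adjusted p = 0.273). With the offset for GC content and exon length it passed as lower, at a log2 fold change of -0.23 (adjusted p = 0.00234).

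Per kilobase of exon, the delta and gamma transcripts dominated the set in all 6 libraries. The 4 catalytic transcripts summed to 108, 103 and 102 CPM per kb in WT and 195, 191 and 182 CPM per kb in the KO-labelled libraries. Pik3cd made up 55.6 ± 0.493% of that sum in WT and 68.1 ± 0.629% in the KO-labelled libraries, and Pik3cg 31.96 ± 0.469% and 24.97 ± 0.591%. The share of Pik3ca was 9.93 ± 0.173% in WT and 5.17 ± 0.202% in the other group, and Pik3cb held 2.50 ± 0.26% and 1.75 ± 0.193%. The delta share was higher in each KO-labelled library than in any WT library, and the shares of the gamma, alpha and beta transcripts were lower in each. Exon length here is the union over all annotated transcripts, so these shares depend on which isoforms the cells use.

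**Figure D2:**
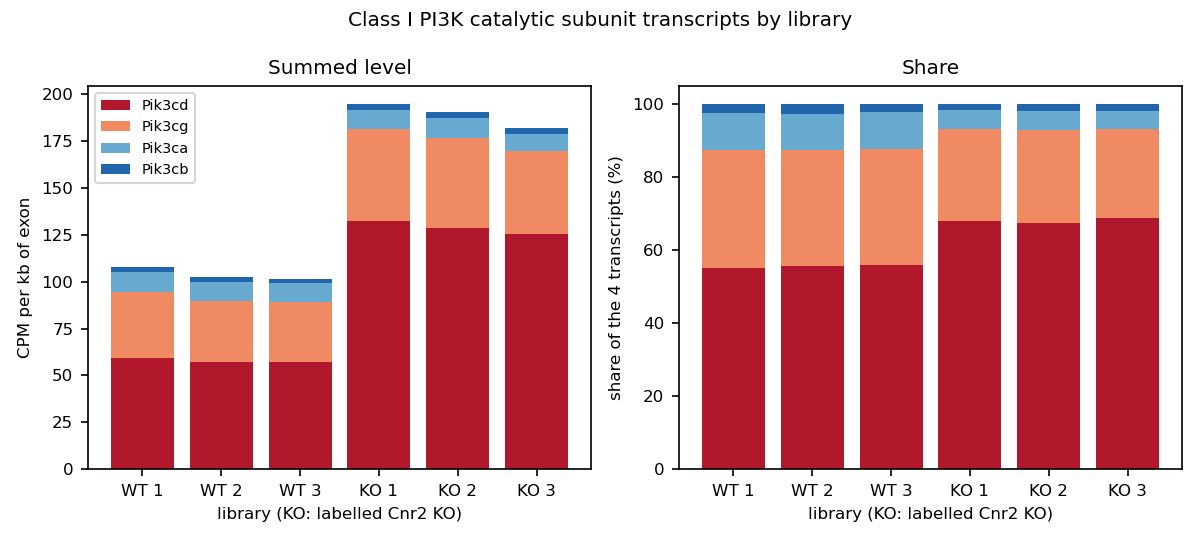
Transcript levels of the 4 class I PI3K catalytic subunits in each library (x axis). The left bars give CPM per kb of exon, stacked, and the right bars give each gene's share in percent. The summed level lies at 102 to 108 CPM per kb in WT and 182 to 195 CPM per kb in the KO-labelled libraries, and most of the added height is Pik3cd.

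The 3 regulatory members, Pik3r1, Pik3r2 and Pik3r5, had log2 fold changes of 0.10 to 0.27. Pik3r5, the partner of the gamma subunit, rose from 55.5 ± 2.44 to 66.9 ± 6.56 CPM (log2 fold change 0.27, SE 0.07, adjusted p = 0.00251), and its groups did not overlap. Pik3r2, which encodes the beta regulatory subunit of class IA enzymes, was at 43.2 ± 0.95 and 49.8 ± 4.18 CPM (log2 fold change 0.21, adjusted p = 0.0174). That call was lost without KO-labelled replicate 1 (adjusted p = 0.128) and without WT replicate 1 (adjusted p = 0.0619). Pik3r1, the alpha regulatory subunit, did not pass at 90.8 ± 4.85 and 97.5 ± 0.526 CPM (adjusted p = 0.131), although its groups did not overlap. Without WT replicate 2 it passed narrowly as higher (log2 fold change 0.14, adjusted p = 0.0496). Per kilobase, the class IA regulatory transcripts summed to 19.4 ± 0.64 CPM per kb in WT and 21.9 ± 0.892 CPM per kb in the KO-labelled libraries, a far smaller gap than that of the catalytic transcripts.

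The largest difference of all members was in a lipid phosphatase. Inpp4b (ENSMUSG00000037940.17, chromosome 8, 81342556 to 82127914) encodes an enzyme that degrades a lipid product of PI3K that also recruits AKT. Its level was 20.8, 23.7 and 22.2 CPM in WT replicates 1, 2 and 3 and 195, 165 and 157 CPM in the KO-labelled libraries. The lowest KO-labelled library stood several times above the highest WT library. The fitted difference was 7.64-fold (log2 fold change 2.93, SE 0.08, adjusted p = 3.44e-16), and it ranged from 2.84 to 3.00 on the log2 scale when each library was left out in turn. Per kilobase of exon, Inpp4b stood at place 30 of 34 members in WT, with 1.70 CPM per kb, and at place 11 in the KO-labelled libraries, with 13.2 CPM per kb.

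Inpp5d, which encodes SHIP1, a PIP3 phosphatase of blood cells, was higher too. It stood at 289, 285 and 300.2 CPM in WT and 388, 397 and 378 CPM in the KO-labelled libraries (log2 fold change 0.41, SE 0.04, adjusted p = 1.30e-07). The groups were clearly apart. Among phosphoinositide phosphatases outside the members, Inpp5k rose from 40.1 ± 1.16 to 68.4 ± 0.899 CPM (1.70-fold, adjusted p = 2.29e-09), Inpp5e from 21.8 ± 3.56 to 31.0 ± 1.30 CPM (adjusted p = 1.35e-04) and Inpp4a from 4.05 ± 0.345 to 5.40 ± 0.767 CPM (adjusted p = 0.0398). Inppl1 did not pass (adjusted p = 0.309). Inpp5e, Inpp4a and Inppl1 were named after their values had been seen.

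Pik3ip1 (ENSMUSG00000034614.14, chromosome 11, 3330401 to 3342971), a membrane protein that inhibits PI3K, was scarce in every library. It was at 1.26, 1.29 and 1.59 CPM in WT and 2.21, 2.56 and 3.83 CPM in the KO-labelled libraries, from 24, 167 and 30 counts and from 43, 48 and 69 counts. The groups did not overlap, but the values of the second group were spread widely (log2 fold change 1.07, SE 0.29, adjusted p = 0.00341). The antisense gene Gm12592 shares exon sequence with it and held 0.128 and 0.328 CPM, so a small part of this signal cannot be assigned.

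**Figure D3:**
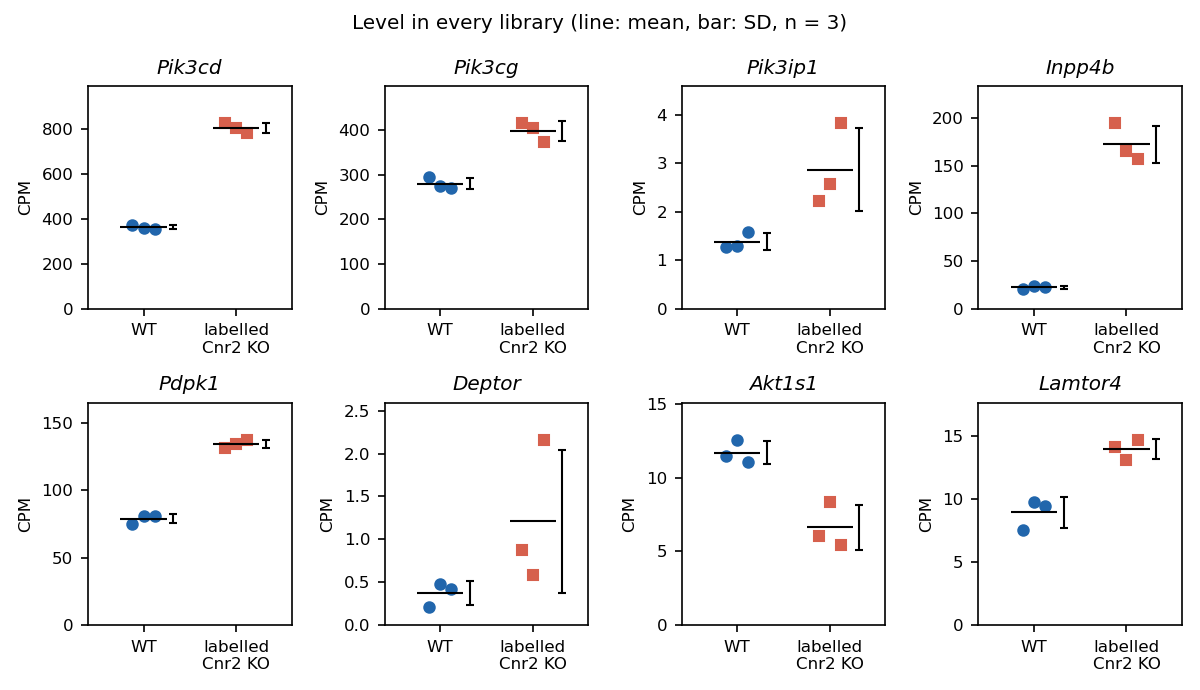
CPM (y axis, from 0) in each of the 3 WT libraries (circles) and 3 KO-labelled libraries (squares) for the 8 called members with a log2 fold change of at least 0.5 in size and no overlap between groups. Lines are means and bars are SD. Akt1s1 falls, the other 7 rise, and Deptor has 1 KO-labelled library far above the rest at 2.16 CPM.

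Just below PIP3, the kinase gene Pdpk1 rose while Akt1 and Akt2 did not pass the test. Pdpk1 (ENSMUSG00000024122.16, chromosome 17, 24073680 to 24150924) encodes PDK1, which phosphorylates AKT and related kinases. Its level was 74.9, 81.1 and 80.7 CPM in WT and 131, 134 and 137 CPM in the KO-labelled libraries. All values of the second group were above all of the first (1.70-fold, log2 fold change 0.76, SE 0.05, adjusted p = 2.77e-10). Akt1 was the most abundant member per kilobase in both groups, at 158 ± 1.56 and 151 ± 6.14 CPM per kb, and its groups overlapped (log2 fold change -0.07, SE 0.04, adjusted p = 0.187). Akt2 was at 127 ± 5.05 and 128 ± 3.93 CPM (log2 fold change 0.02, SE 0.05, adjusted p = 0.792). Sgk1, a kinase that PDK1 and mTORC2 activate, rose from 17.1 ± 2.79 to 24.1 ± 0.936 CPM (log2 fold change 0.46, adjusted p = 9.22e-04).

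Among the core members of the mTOR complexes, Mtor was lower and Rptor, Rictor and Mlst8 were slightly higher. Mtor was at 82.7, 71.8 and 70.8 CPM in WT and 60.8, 58.7 and 61.8 CPM in the KO-labelled libraries (log2 fold change -0.31, SE 0.07, adjusted p = 4.72e-04). The groups did not overlap. Rptor, which defines mTORC1, was at 71.5 ± 7.19 and 82.3 ± 2.24 CPM (log2 fold change 0.20, adjusted p = 0.0123), and Rictor, which defines mTORC2, at 48.7 ± 3.22 and 58.1 ± 2.60 CPM (log2 fold change 0.26, adjusted p = 0.00265). Both calls were lost with the GC content and length offset, at log2 fold changes of -0.0045 for Rptor (adjusted p = 0.951) and 0.02 for Rictor (adjusted p = 0.787), whereas Mtor stayed lower at -0.46. Rptor also lost its call without WT replicate 3 (adjusted p = 0.0789). Mlst8, a subunit of both complexes, was at 38.3 ± 1.16 and 44.6 ± 2.52 CPM (log2 fold change 0.22, adjusted p = 0.011, and 0.0547 without KO-labelled replicate 1).

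The inhibitory subunits of the mTOR complexes went in opposite directions. Akt1s1 (ENSMUSG00000011096.17, chromosome 7, 44848991 to 44855421) encodes PRAS40, an mTORC1 inhibitor that AKT inactivates. It was at 11.5, 12.6 and 11.04 CPM in WT and 6.06, 8.38 and 5.43 CPM in the KO-labelled libraries. The groups did not overlap, and it was the sole member called as at least 1.5-fold lower (1.78-fold, log2 fold change -0.83, SE 0.15, adjusted p = 6.42e-05). Its exons overlap those of Tbc1d17, which did not pass the test at 25.6 and 28.2 CPM (adjusted p = 0.187), and reads of the shared sequence cannot be assigned to either gene. Deptor (ENSMUSG00000022419.16, chromosome 15, 55112317 to 55259271), an inhibitor of both mTOR complexes, was close to absent, with 4, 62 and 8 counts in WT and 17, 11 and 39 counts in the KO-labelled libraries. These were 0.210, 0.480 and 0.423 CPM against 0.873, 0.587 and 2.16 CPM, so replicate 3 carried much of the rise (log2 fold change 1.55, SE 0.49, adjusted p = 0.00895). Without that library the log2 fold change was 0.85 and did not pass (adjusted p = 0.175).

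Around the Rheb switch, Rheb itself rose and Ddit4 fell. Rheb, the GTPase that activates mTORC1, was at 69.7, 83.3 and 74.4 CPM in WT and 97.2, 97.8 and 99.2 CPM in the KO-labelled libraries (log2 fold change 0.36, SE 0.06, adjusted p = 5.86e-05). Its KO-labelled libraries lay within a narrow band above all WT values. Tsc1, which encodes a subunit of the complex that turns Rheb off, did not pass at 27.6 ± 2.63 and 30.0 ± 1.43 CPM (adjusted p = 0.173). Tsc2, the catalytic partner, passed narrowly with overlapping groups, at 87.3 ± 9.09 and 97.7 ± 7.18 CPM (log2 fold change 0.17, adjusted p = 0.044). Its adjusted p was 0.935 with the GC content and length offset, and the call was also lost without WT replicate 2 (0.203) or 3 (0.172) and without KO-labelled replicate 1 (0.230) or 2 (0.0546). Tsc2 shares exon sequence with Pkd1, which was itself higher (39.6 and 58.6 CPM). Ddit4, which encodes REDD1, a stress-induced brake on mTORC1, fell from 55.3 ± 5.97 to 44.1 ± 2.21 CPM (log2 fold change -0.32, SE 0.08, adjusted p = 0.00138).

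Of the S6 kinases, which phosphorylate ribosomal protein S6, Rps6kb1 fell and Rps6kb2 did not pass. Rps6kb1 was at 69.7, 66.9 and 77.4 CPM in WT and 57.1, 56.8 and 60.4 CPM in the KO-labelled libraries (log2 fold change -0.29, SE 0.07, adjusted p = 8.18e-04). Its lowest WT library was above the highest of the other group, and its neighbour Rnft1, with which it shares exon sequence, was lower as well (log2 fold change -0.45). Rps6kb2 was at 29.9 ± 2.36 and 31.1 ± 3.64 CPM (adjusted p = 0.673). Its exons overlap those of Coro1b and Ptprcap, genes at 202 and 223 CPM in WT, so its level is uncertain.

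The lysosomal platform of mTORC1 showed small and mixed differences. Flcn, which encodes folliculin, a regulator of Rag GTPases, was at 62.6, 61.7 and 64.1 CPM in WT and 48.2, 45.3 and 45.7 CPM in the KO-labelled libraries (log2 fold change -0.43, SE 0.06, adjusted p = 5.78e-06). Its groups were well apart. Rragc, a Rag GTPase that pairs with RagA or RagB, did not pass, at 124 ± 7.45 and 131.5 ± 7.44 CPM (adjusted p = 0.222), and its paralog Rragd was near the floor of detection as given above. Of the RagA and RagB genes, both outside the members, Rraga fell from 80.8 ± 2.63 to 64.0 ± 1.27 CPM (log2 fold change -0.34) and Rragb rose from 3.61 ± 0.517 to 5.62 ± 0.169 CPM (log2 fold change 0.62).

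Of the 5 Ragulator subunits, which tether the Rag GTPases to the lysosome, Lamtor4 and Lamtor2 rose and the other three did not pass. Lamtor4 (ENSMUSG00000050552.8, chromosome 5, 138255482 to 138259398) was at 7.51, 9.79 and 9.46 CPM in WT and 14.1, 13.1 and 14.7 CPM in the KO-labelled libraries. Every KO-labelled library was above every WT library (1.54-fold, log2 fold change 0.62, SE 0.12, adjusted p = 1.83e-04). Lamtor2 was at 18.8 ± 1.78 and 22.6 ± 0.882 CPM (log2 fold change 0.25, adjusted p = 0.0222, but 0.123 without WT replicate 1, 0.079 without KO-labelled replicate 2 and 0.056 in DESeq2). Lamtor1 (56.8 ± 6.39 and 55.3 ± 2.90 CPM), Lamtor3 (45.5 ± 5.57 and 46.9 ± 2.21 CPM) and Lamtor5 (65.3 ± 2.68 and 68.5 ± 3.81 CPM) had overlapping groups. Lamtor5, the shortest member with 884 bases of exon, passed as higher under the offset, at a log2 fold change of 0.21 (adjusted p = 0.00832). Although these subunits act in a fixed complex, their transcripts ranged in WT from 6.85 CPM per kb for Lamtor4 to 73.9 CPM per kb for Lamtor5.

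The promoter sequence of Lamtor4, the Ragulator gene with the larger rise, was set beside those of Lamtor1 and Lamtor5, which did not pass. TFEB, a lysosomal transcription factor under mTORC1 control, and the MYC family bind sites built on the E-box CACGTG. The Tfeb transcript rose from 5.88 ± 0.783 to 17.1 ± 0.609 CPM (log2 fold change 1.499, SE 0.12, adjusted p = 2.67e-09). Whether TFEB or MYC proteins act on these promoters was not tested. The 150 bases before the RefSeq start are shown 5′ to 3′ (GRCm38.p6, plus strand in all 3 cases), with each CACGTG in capitals. They lie at chr5:138255332-138255481 for Lamtor4, chr7:101905687-101905836 for Lamtor1 and chr3:107278708-107278857 for Lamtor5.
Lamtor4: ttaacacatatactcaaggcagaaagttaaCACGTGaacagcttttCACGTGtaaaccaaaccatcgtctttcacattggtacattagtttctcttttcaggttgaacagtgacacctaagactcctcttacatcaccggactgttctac
Lamtor1: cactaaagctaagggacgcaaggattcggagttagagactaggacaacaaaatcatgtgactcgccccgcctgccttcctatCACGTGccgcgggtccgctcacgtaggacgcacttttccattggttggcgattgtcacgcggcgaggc
Lamtor5: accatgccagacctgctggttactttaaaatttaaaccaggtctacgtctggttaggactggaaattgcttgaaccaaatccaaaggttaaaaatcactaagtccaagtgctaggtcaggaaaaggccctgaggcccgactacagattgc
Lamtor4 held 2 copies, beginning 120 and 104 bases before the start, Lamtor1 held 1, beginning 68 bases before it, and Lamtor5 held 0. Lamtor2, the other Ragulator gene that rose, also held 0 in the 250 bases before its start and is not shown. Lamtor3 had no RefSeq promoter to search. CACGTG reads the same on both strands and no other motif was searched. In the 250 bases before the start it was present for 4 of the 31 members with a RefSeq promoter (12.9%), against 6.86% of 27025 genes. The latter include genes outside the deposited table, and whether the 2 shares differ was not tested. Lamtor4 and Rheb were higher, and Lamtor1 and Rragc did not pass. A match is a string of letters and not a bound site.

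Beyond the members, 67 of 68 other pathway genes were in the table and 65 were tested. Of these, 21 were higher and 22 lower, 66.2% in all against the background of 66.3%, and 22 did not pass. Their median log2 fold change of 0.06 compares with 0.01 over all genes. The genes that report amino acids to the Rag GTPases were grouped by complex after their values had been seen. All 5 subunits of GATOR2, which relays amino acid sufficiency to mTORC1, were lower in the KO-labelled libraries, where 33.2% of all genes tested were lower. Mios fell from 46.8, 46.2 and 48.8 CPM to 34.3, 33.9 and 33.8 CPM (log2 fold change -0.47), Wdr24 from 43.2 ± 1.76 to 32.3 ± 1.71 CPM (-0.42) and Wdr59 from 25.5 ± 2.39 to 18.8 ± 1.93 CPM (-0.44). Seh1l fell from 147 ± 6.27 to 96.2 ± 2.88 CPM (-0.62) and Sec13 from 273 ± 7.07 to 230.5 ± 9.72 CPM (-0.25). Seh1l and Sec13 also serve nuclear pores. None of the 5 overlapped between groups, as was so for 68.9% of all genes tested, and the highest of their adjusted p-values was 6.35e-04.

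GATOR1, the complex that GATOR2 opposes, did not share that direction. Depdc5 rose from 29.7 ± 4.00 to 43.3 ± 3.88 CPM (log2 fold change 0.53), while Nprl2 (adjusted p = 0.46) and Nprl3 (adjusted p = 0.657) did not pass. The genes of the CASTOR proteins, a family with an arginine sensor, moved apart. Castor1 fell from 94.7 ± 5.79 to 54.4 ± 4.83 CPM and Castor2 rose from 14.1 ± 1.90 to 26.2 ± 3.12 CPM. The sestrins, stress and leucine sensors that hold GATOR2 back, were also split. Sesn1 rose 1.93-fold, from 25.6 ± 0.957 to 49.6 ± 0.854 CPM, and Sesn3 rose 1.56-fold, whereas Sesn2, the most abundant per kilobase in WT, fell from 64.1 ± 2.75 to 55.0 ± 3.83 CPM. Fnip2, a folliculin partner, fell 1.56-fold together with Flcn, and Fnip1 did not pass (adjusted p = 0.195).

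Of 6 genes of the translation machinery below mTORC1, 4 were lower and 1 was higher, against 33.2% and 33.1% of all genes tested. Eif4e, the cap-binding protein, was at 447, 485 and 425 CPM in WT and 245, 246 and 235 CPM in the KO-labelled libraries (log2 fold change -0.90, SE 0.05, adjusted p = 1.25e-11). Eif4b, an S6 kinase substrate that aids the helicase of initiation, fell from 418.5 ± 10.7 to 233 ± 5.91 CPM, and Rps6 from 611 ± 22.9 to 427 ± 17.1 CPM. Reads of Rps6, as of other ribosomal protein genes, may be shared with near-identical pseudogenes. Pdcd4, a repressor of initiation that S6 kinase marks for destruction, went the other way, from 5.25, 5.92 and 6.39 CPM to 14.8, 19.97 and 15.9 CPM (2.88-fold, log2 fold change 1.53). No library of either group crossed over for these 4 genes, as was so for 68.9% of all genes tested. Eif4ebp1, the repressor of Eif4e protein, was at 144 ± 6.37 and 128 ± 3.73 CPM (log2 fold change -0.17, adjusted p = 0.00823), a call lost with the GC content and length offset (adjusted p = 0.36), and Eif4ebp2 did not pass (adjusted p = 0.583). The ribosomal protein share of counts moved with the groups, at 2.04 to 2.18% in WT and 1.28 to 1.49% in the KO-labelled libraries, and its part in these differences was not tested.

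**Figure D4:**
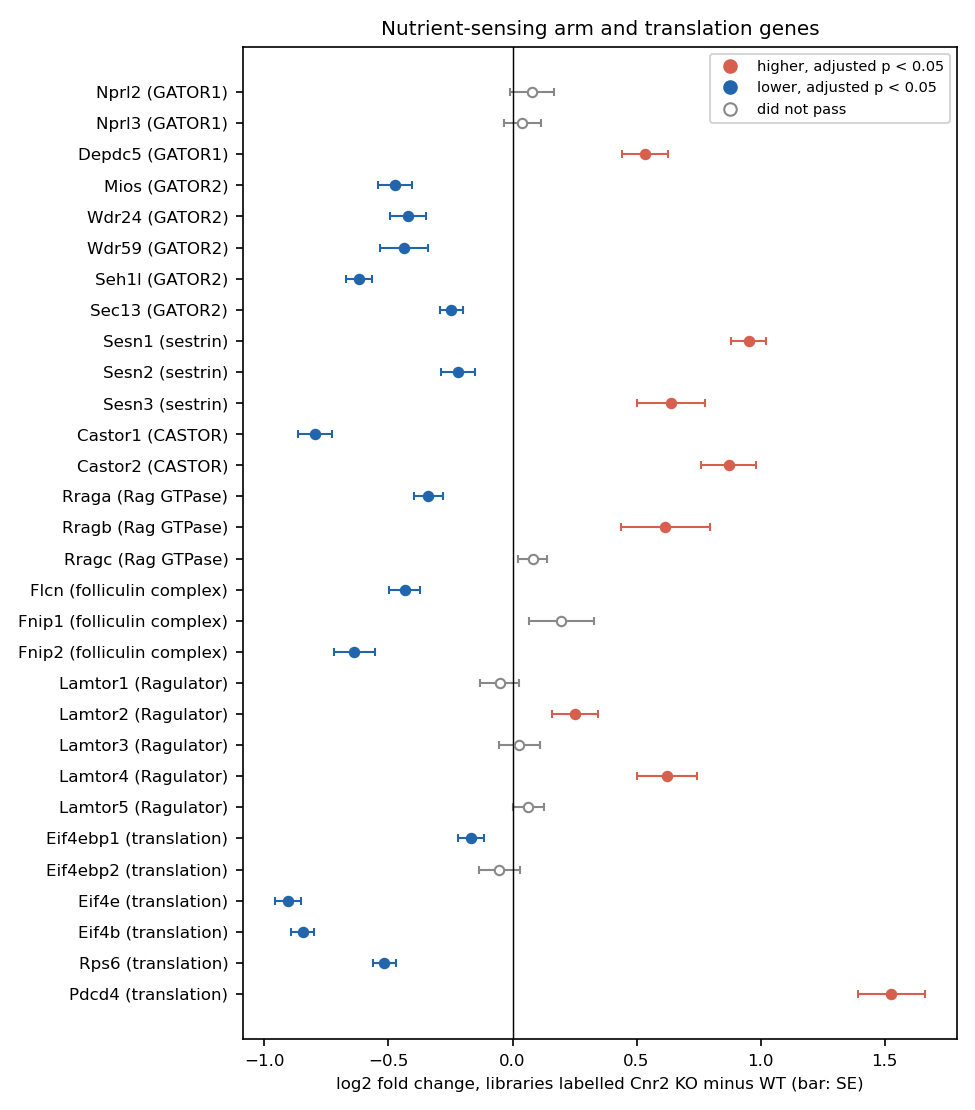
Log2 fold change (x axis, KO-labelled libraries minus WT, bars SE, n = 3 each) of genes that bring amino acid signals to mTORC1 and of translation genes below it, with their complex in brackets. Red is higher, blue lower and open not passed at adjusted p under 0.05. The 5 GATOR2 genes all lie between -0.62 and -0.25, and Eif4e, Eif4b and Rps6 lie at -0.90 to -0.52, opposite Pdcd4 at 1.53.

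The remaining pathway genes named here have other roles. Pik3ap1, an adaptor that brings PI3K to receptors, fell from 67.2 ± 1.01 to 34.01 ± 4.64 CPM (1.97-fold), and Lpin1, a lipid regulator that mTORC1 holds out of the nucleus, rose from 16.9 ± 0.49 to 27.6 ± 2.99 CPM. Irs2, the insulin receptor substrate, fell from 533 ± 9.14 to 352 ± 28.5 CPM. Prkaa1, a catalytic subunit of the energy sensor AMPK, fell from 49.0 ± 1.27 to 33.2 ± 1.13 CPM, and Telo2, which helps assemble the mTOR kinase, from 65.4 ± 4.33 to 40.1 ± 1.06 CPM. Grb10, an adaptor that mTORC1 stabilises to damp insulin signals, fell 1.55-fold, and Trib3, a pseudokinase that binds AKT, rose 1.48-fold. Of the mTORC2 partners, Prr5 fell 1.49-fold, and Mapkap1 rose by a log2 fold change of 0.19, a call lost without WT replicate 2 (adjusted p = 0.105). Phlpp1, a phosphatase that acts on AKT itself, rose from 2.55 ± 0.39 to 6.39 ± 0.985 CPM. Pik3r3, a regulatory subunit, was almost undetected in WT, at 0.210, 0.163 and 0 CPM, and was at 1.23, 2.62 and 1.39 CPM in the KO-labelled libraries. The genes of this paragraph other than Pik3ap1 and Lpin1 were named after their values had been seen.

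FOXO factors, which AKT keeps out of the nucleus, ended the pathway. Foxo3 was at 7.98, 8.11 and 7.98 CPM in WT and 8.47, 8.76 and 6.82 CPM in the KO-labelled libraries, with overlapping groups (log2 fold change -0.0016, SE 0.14, adjusted p = 0.993). Foxo1, more abundant per kilobase, fell from 46.0 ± 3.27 to 36.6 ± 1.61 CPM (log2 fold change -0.33, SE 0.07, adjusted p = 7.20e-04). Foxo4 was near the floor at 0.988 ± 0.229 and 0.372 ± 0.0785 CPM, and its call as lower was lost without KO-labelled replicate 2 (adjusted p = 0.0519).

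Of 25 genes known as FOXO targets, 24 were in the table and all 24 were tested, with 13 higher, 8 lower and 3 not passed, and their median log2 fold change was 0.27, against 0.01 for all genes tested. The called share was 87.5% against the background of 66.3%. The list was drawn up with earlier results of these data known, including Ccr7 and S1pr1. The egress receptors Ccr7 and S1pr1 were 60.3-fold and 14.0-fold lower and the mitophagy receptor Bnip3 2.45-fold lower. Txnip, a brake on glucose uptake, rose from 71.7 ± 2.90 to 186 ± 13.6 CPM, Cdkn1b, a cell cycle inhibitor, 2.09-fold and Insr, the insulin receptor, 2.00-fold. Il7r, the receptor chain for IL-7 and TSLP, and Klf2, a regulator of lymphocyte egress, rose 1.31-fold and 1.74-fold and were named after their values had been seen. Pik3ip1, Rictor, Sesn1, Sesn3 and Irs2 stand in this list and in the pathway lists alike.

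Members with the longest exons shifted down most under the offset for GC content and length. The shift ran from -0.23 for Rictor, with 16930 bases of exon, to 0.16 for Akt1s1, with 3072 bases and the highest GC content, 63.7%. It was -0.20 for Inpp4b, whose log2 fold change was still 2.73. The calls of Rptor, Rictor and Tsc2 were lost and those of Pik3ca and Lamtor5 were gained. For 19 of the 22 called members the call and its direction were the same.

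**Figure D5:**
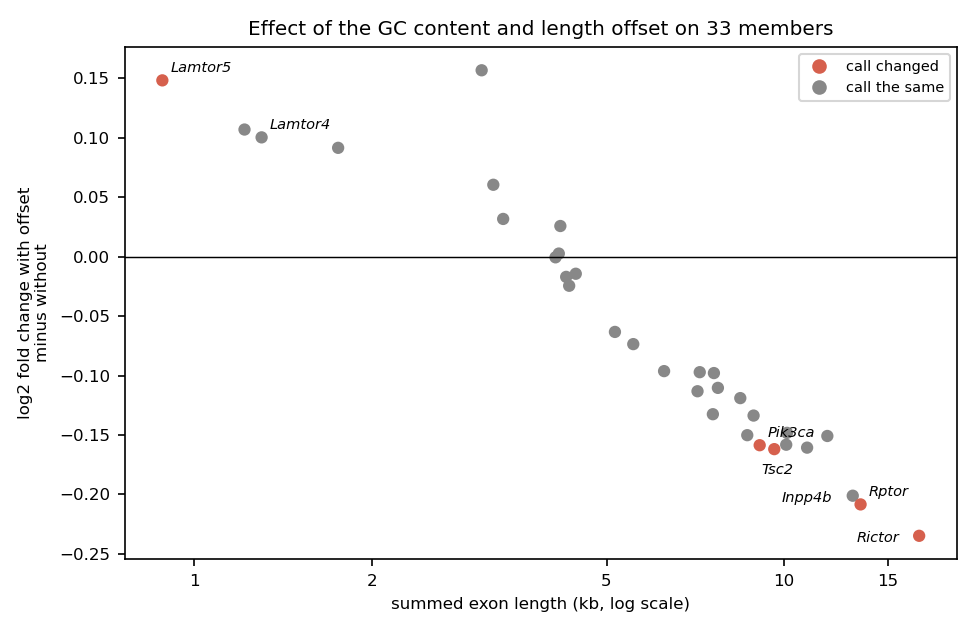
Change in log2 fold change (y axis) when the GC content and length offset was applied, against the summed exon length of each of the 33 tested members (x axis, kb, log scale). Red points changed their call. The shift falls from 0.15 for Lamtor5 at 0.884 kb to -0.23 for Rictor at 16.9 kb.

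The members lie on 15 chromosomes, and 4 are on chromosome 4, which also carries Cnr2. Of these, Rragc, Mtor and Pik3cd lie 11.96, 12.53 and 13.73 Mb from Cnr2 and had log2 fold changes of 0.08, -0.31 and 1.15. Exons of 11 members overlap those of another annotated gene, and the strand setting of the counting is not given in the sources used here.

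In bulk RNA, fewer cells of a type and less RNA per cell cannot be told apart. Most markers of other cell types were low, but some reached the level of scarcer ILC2 markers. Pecam1 was at 109 and 39.7 CPM and Gzma at 64.0 and 49.2 CPM (WT, then KO-labelled). Trbc2 was at 39.9 and 67.4 CPM and Epcam at 10.95 and 46.4 CPM. The ILC2 markers Icos and Il7r were at 44.2 and 89.5 CPM and at 41.9 and 55.1 CPM. The sums of several lists differed between the groups. The sums overlapped for NK cell or ILC1 markers (57.0 to 77.8 CPM in WT and 46.1 to 59.8 CPM in the KO-labelled libraries). They also overlapped for fibroblast and neutrophil markers, and for no other list but that of ILC2s. B cell markers, Cd79b alone, stood at 16.1 to 17.2 CPM in WT and 25.1 to 26.3 CPM in the other group. Erythroid sums were 0.735 to 1.27 and 5.13 to 6.27 CPM. Eosinophil, basophil or mast cell sums were 1.58 to 3.43 and 3.70 to 4.33 CPM. ILC3 sums were 4.66 to 4.83 and 0.822 to 1.16 CPM, with Il17a, Il17f and Il22 at 0 counts in the KO-labelled libraries. Of 10 T cell markers 6 were in the table, summing to 59.4 to 62.4 CPM in WT and 110 to 117 CPM in the KO-labelled libraries. The sum was mostly Trbc2, with Cd3g at 4.65 and 17.25 CPM and Cd3e at 1.27 and 2.22 CPM. Trac alone was lower, at 1.48 and 0.464 CPM. Of 8 macrophage markers 2 were in the table, summing to 0 to 0.0525 CPM in WT and 0.359 to 1.55 CPM in the other group. Dendritic cell markers (4 of 6 in the table) summed to 9.98 to 12.6 and 20.4 to 25.6 CPM, mostly Xcr1. Epithelial markers (4 of 6) summed to 12.6 to 27.0 and 45.7 to 51.6 CPM, mostly Epcam, with Krt8 at 0 counts in the KO-labelled libraries. Within the dendritic cell and epithelial lists only Xcr1 and Epcam had a higher mean in the KO-labelled libraries. The other genes of these lists, such as Zbtb46 and Krt18, had a lower one. The sum of endothelial markers (2 of 4) was lower in the KO-labelled libraries, at 106 to 114 and 39.3 to 40.3 CPM, mostly Pecam1. The part of other cells in the members' differences was not tested.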

How the data were processed

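RNA from 6 libraries of lung ILC2s was counted per gene by the authors, who deposited 1 table of expected counts (estimated counts, mostly whole). The submitters' processing notes name the build mm10, DESeq2, STAR 2.7.8 and Partek 10.0 without their roles. The counting method is not given in the sources used here.

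Values were rounded and tested with edgeR 4.0.16 (R 4.3.3): quasi-likelihood, TMM scaling, filterByExpr (minimum count 10, minimum total 15), genotype label as the only term, Benjamini-Hochberg adjustment over 12150 genes. The SE is the absolute log2 fold change over the square root of F. The fit was tested on counts simulated with the spread of these libraries, with far fewer changed genes, all of them abundant. That check cannot show how the fit performs on these data or on scarce members such as Deptor. Exon lengths and positions come from GENCODE M21 (GRCm38), which matched 16233 of 16588 genes, and promoters from RefSeq (31 of 34 members).

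The members, lists and naming rule were chosen with earlier results of these data known. By that rule all members were described, with every library for called, non-overlapping members at a log2 fold change of 0.5 or more in size. Of other pathway genes it named the 10 largest called changes at a mean of at least 5 CPM plus Foxo1, Sgk1, Eif4ebp1, Rraga, Rragb and genes not reported here, and of FOXO targets the largest 6; other names were added after their values were seen. Correlations of same-numbered deviations were 0.0656, 0.00571 and 0.0429 for replicates 1, 2 and 3. Replicates 1 and 3 correlated best with their own number and replicate 2 did not. All values were small, so whether replicate numbers pair the libraries cannot be told. Replicates are not labelled as separate animals, so p-values reflect the spread among these libraries alone, perhaps a technical one. Libraries of a group differed by more than sampling noise.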

Additional observations from a re-analysis of the deposited data

How the results depend on the processing

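Over DESeq2 size factors, no filter, a stricter filter, a replicate block, the GC content and length offset alone and with the block, thinning of WT replicate 2, DESeq2 1.42.0, limma-voom (limma 3.58.1) and leaving out each library, 58 of the 68 called genes that were followed kept their call and direction. The other 10 were Deptor, Eif4ebp1, Foxo4, Lamtor2, Mapkap1, Mlst8, Pik3r2, Rictor, Rptor and Tsc2, which lost the call in at least 1 of these settings. Calls were gained by Pik3ca and Lamtor5 with the offset, and by Rragc with the offset and block (adjusted p = 0.0352). Pik3r1 (adjusted p = 0.0496) and Fnip1 (adjusted p = 0.0407) gained a call as higher without WT replicate 2. Members called higher ranged from 14 to 17 without single libraries, and members called lower stayed at 5. With at least 1.5-fold also required, 6 members were higher and 1 lower, and 11 other pathway genes were higher and 10 lower, since fewer genes can pass.

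With the replicate block 17 members were higher and 5 lower, all 22 also called without it, so it changed no call among the members. WT replicates 1 and 3 correlated best with their own number, whereas WT replicate 2 did not.

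The sign of 9 genes turned in at least 1 setting. Of these Rptor was called in the main test, and the rest were near 0 and did not pass in that test. With the GC content and length offset the log2 fold changes were -0.061 for Pik3r1, -0.097 for Akt2, -0.0045 for Rptor, -0.015 for Tsc1, -0.017 for Rps6kb2, 0.0090 for Lamtor1 and -0.076 for Nprl3. With that offset and the replicate block they were -0.056 for Pik3r1, -0.095 for Akt2, -0.00049 for Rptor, -0.021 for Tsc1, -0.0085 for Rps6kb2, 0.017 for Lamtor1 and -0.074 for Nprl3. Akt2 was at -0.0016 with WT replicate 2 thinned, and Foxo3 at 0.0022 with the replicate block and 0.0046 in limma-voom. The cause of these turns was not tested. Without single libraries Akt2 ranged from -0.0085 to 0.042, Rps6kb2 from -0.017 to 0.14, Lamtor1 from -0.12 to 0.051, Lamtor3 from -0.062 to 0.13 and Foxo3 from -0.069 to 0.10. Deptor, Rragd and Pik3ip1 had so few counts that depth limits what can be said of them.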
